A study of Homo sapiens with 6 samples.

Results

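The collagen and laminin genes are the 53 protein-coding genes, of 30341 genes present in both deposited tables, whose symbol names a collagen alpha chain (41 genes) or a laminin alpha, beta or gamma chain (12 genes). They were chosen by symbol alone, without any measured value. COL11A1 and COL22A1 also carry such a symbol but occur in the 48 h table only, with 3 and 2 counts after doxorubicin and 0 in the parental library, and were left out. Collagens are extracellular proteins in which alpha chains wind around one another in a long helix, and some types need a defined set of partner chains. Fibrillar collagens give connective tissue its tensile strength, type IV collagen forms the network of basement membranes, and other types link or decorate these structures or span the plasma membrane. Laminins are cross-shaped proteins of one alpha, one beta and one gamma chain that polymerise on the cell surface and bind type IV collagen through nidogen. Fibroblasts, endothelial cells and epithelia are the usual sources of these proteins, and blood cell lines such as K562 are not known for making a collagen matrix.

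K562 is a suspension line from a chronic myelogenous leukaemia and is labelled as wild type (WT) in its parental form. RNA was sequenced from 6 samples: untreated parental cells (1 sample, sequenced as the libraries Parental_1 and Parental_2), parental cells after 48 h with doxorubicin at 225 ng/ml (1 library, Parental_Doxo) and 4 anthracycline-tolerant clones (ATC1 to ATC4). Doxorubicin is an anthracycline that poisons topoisomerase II and breaks DNA. For the clones, 480 wells of 10000 cells first received 100 ng/ml for 3 days and then 225 ng/ml, 21 wells held viable cells 4 weeks later, and cells of 4 wells could be kept at 225 ng/ml. Each clone is therefore the outgrowth of 1 well, grown in the drug, and no drug-free culture of a clone was analysed here. Selection, long growth in the drug and the drug itself cannot be told apart in the clones. The clones were compared with Parental_1, which shares their table, and Parental_Doxo with Parental_2.

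Library totals lay between 18420238 and 21361758 counts in the table of the clones and were 12537146 (Parental_2) and 14146994 (Parental_Doxo) in the 48 h table. The K562 list of globin, glycophorin A, GATA1 and other erythroid and BCR-ABL1 partner genes was expressed in all 7 libraries, with a summed counts-per-million value (CPM) of 6186 in Parental_1, 4721 to 10923 in the clones, 3808 in Parental_2 and 4734 after 48 h. In bulk RNA of this kind, fewer cells expressing a gene and less RNA per cell cannot be told apart. Because the parental sample was single, edgeR took the spread between samples from the 4 clones and assumed that the parental sample varied alike. Its p-values measure that spread only.

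Together the 53 genes took 429 CPM (of all counts, unscaled) in Parental_1 and 734, 948, 695 and 861 CPM in ATC1 to ATC4. The share was higher in each clone than in either parental library, since Parental_2 had 390 CPM. It was 568 CPM after 48 h of doxorubicin. Single genes held much of these sums. LAMA5 had 3971 of the 8974 member counts in Parental_1, COL6A3 had 5270 of 17462 in ATC2 and COL18A1 had 5217 of 14764 in ATC3. Few members were well expressed: 17 had at least 20 counts in Parental_1, 24 to 28 did so in the clones, 15 in Parental_2 and 32 in Parental_Doxo. All 53 had at least 1 count in Parental_Doxo, against 40 in Parental_2. Parental_Doxo held more counts in total (14146994 against 12537146). The shares of all genes at these counts were not computed, so the numbers of members cannot be set against them. Across all libraries, 39 members reached 20 counts in at least one and 14 stayed under 20 in every library.

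In the clones, 32 members had at least 20 counts in the highest of the 5 libraries of their table, and 9 of these were at least 2-fold higher than Parental_1 in all 4 clones, beside 6.81% of the 15916 genes of that depth. The 9 were COL1A1, COL1A2, COL5A1, COL24A1, COL6A2, COL7A1, COL9A1, COL16A1 and COL25A1, all of them collagens. Of these, COL1A2, COL5A1, COL24A1, COL6A2, COL9A1, COL16A1 and COL25A1 had 0 to 14 counts in Parental_1. They reached the minimum of 20 counts through the clones alone. The genes behind the share of all genes were admitted by the same rule, and the count is not a test. COL23A1 was the only member at least 2-fold lower in all 4 clones, beside 1.01% of genes. Ratios here are of CPM with a prior count of 2 added, after TMM scaling. When each clone had to differ by 2-fold from both parental libraries, 8 members were higher (4.17% of genes) and COL23A1 was again lower (0.616% of genes), with COL24A1 leaving the count. Clone by clone, 20 members were 2-fold higher in ATC1 (17.3% of genes). The number was 19 for ATC2 (20.1%), 19 for ATC3 (16.1%) and 16 for ATC4 (15.3%). Members 2-fold lower numbered 1 in ATC1 (5.96% of genes), 1 for ATC2 (10.5%), 4 for ATC3 (8.78%) and 3 for ATC4 (5.67%). The median log2 ratio of the 32 members was 1.53, 1.43, 1.36 and 1.00 in ATC1 to ATC4, and that of all genes of this depth lay between -0.01 and 0.03 in each clone. With COL24A1, which had no count in Parental_1, set against a floor of 3 counts there, the medians were 1.47, 1.43, 1.36 and 1.00. Without ATC4, 15 members were 2-fold higher in all remaining clones, beside 9.6% of genes.

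No member passed edgeR's quasi-likelihood test after Benjamini-Hochberg adjustment over the 18300 genes tested, and neither did any other gene (0% higher, 0% lower). The filter on low counts passed 39 members, and it admits a gene on its level in the clones alone. The smallest adjusted p among them was 0.263, for COL23A1. At an unadjusted edgeR p under 0.05, 13 members were higher (7.5% of all genes tested) and 1 was lower (4.28%). The median log2 fold change of the tested members was 1.08, beside 0.11 for all tested genes, and scaling by library totals in place of TMM put these at 1.27 and 0.29. DESeq2 called COL1A1, COL5A1, COL6A2 and COL25A1 higher (2.85% of genes) and COL23A1 lower (0.604%). With both parental libraries in the edgeR fit, COL6A2 was called higher (1.48% of genes) and COL23A1 lower (0.579%). Both parental libraries belong to the same labelled sample, and the labels do not say whether they came from separate cultures. By limma-voom no member was called, and at an unadjusted limma p under 0.05 there were 6 higher (4.2% of genes) and 1 lower (4.54%).

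**Figure D1:**
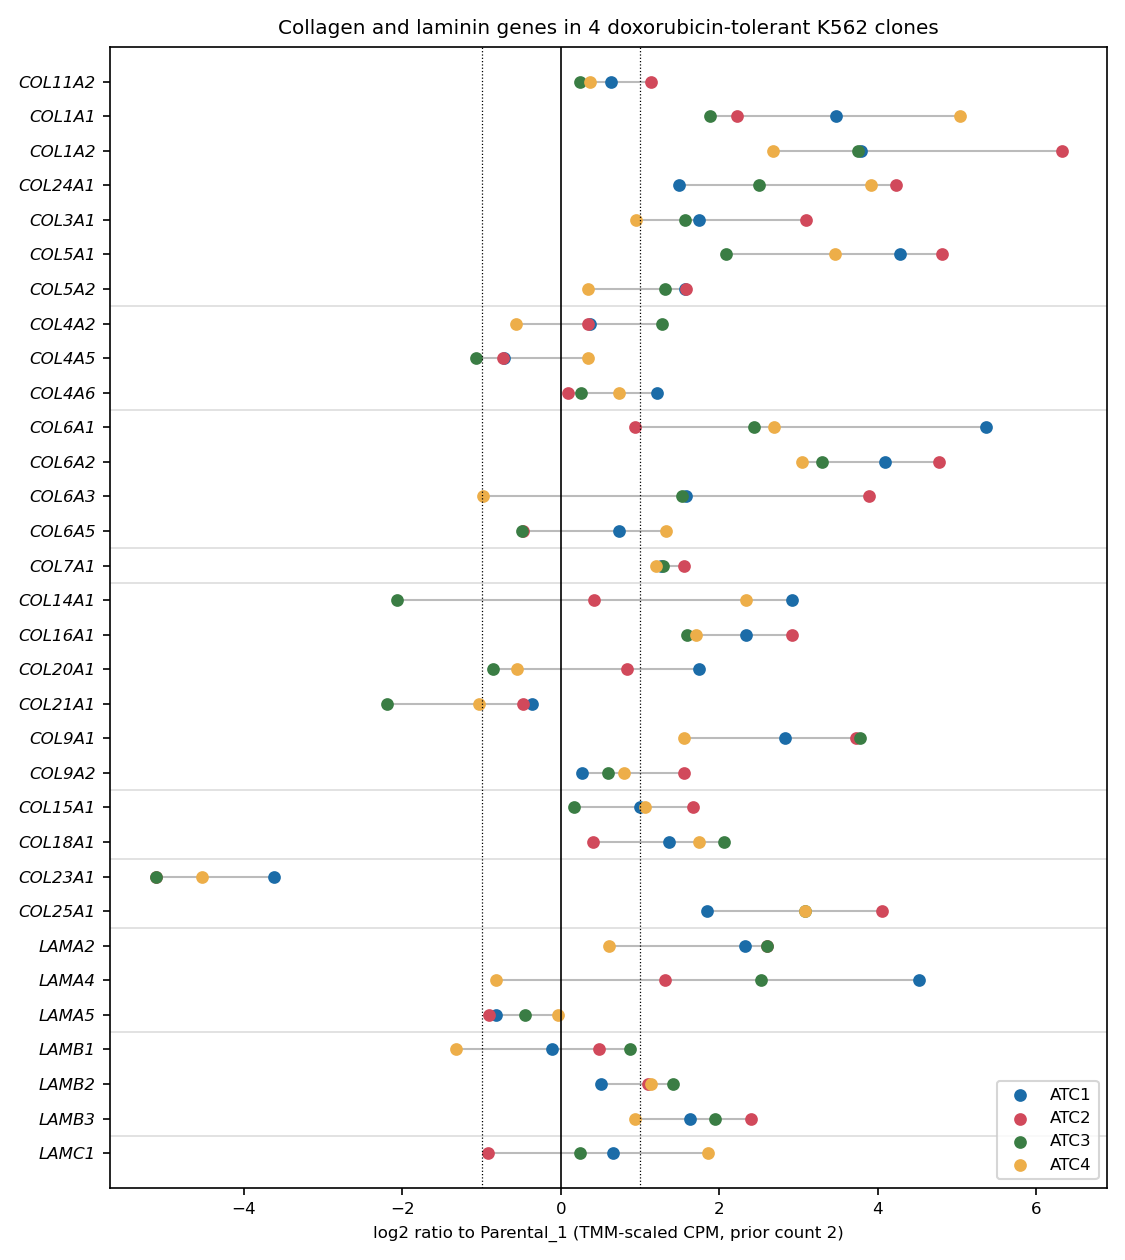
Log2 ratio to Parental_1 (x axis, TMM-scaled CPM with a prior count of 2) of the 32 members with at least 20 counts in the table of the clones, grouped by class; each point is 1 clone, the grey line spans the 4 clones and dotted lines mark 2-fold. Of the 32 members, 9 lie wholly right of the right dotted line and COL23A1 lies wholly left of the left one, where the points of ATC2 and ATC3 coincide.

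Among the fibrillar collagens, 4 of the 7 members with enough counts were 2-fold higher in all 4 clones, beside 6.81% of genes. COL1A1, the major chain of type I collagen in skin, bone and tendon (chr17:50183289-50201632, GRCh38), had 33 counts in Parental_1 and 456, 170, 131 and 1218 in ATC1 to ATC4. Its 4 clones all lay above both parental libraries, Parental_2 having 15 counts, and ATC4 stood highest. The clones averaged 24.0 ± 25.0 CPM (SD, n = 4) and Parental_1 had 1.75 CPM. The log2 fold change was 3.78 ± 1.49 (SE; edgeR, adjusted p = 0.407; from 0.024 with DESeq2 to 0.594 over all settings tried), and 2.75 without ATC4. COL1A2, the partner chain of COL1A1 (chr7:94394561-94431232), had 9 counts in Parental_1 and 175, 915, 150 and 72 in ATC1 to ATC4. It was highest in ATC2 and lowest in ATC4, the clone with the most COL1A1. It averaged 16.2 ± 19.9 CPM (SD, n = 4) over the clones, where Parental_1 had 0.476 CPM, and its log2 fold change was 5.07 ± 1.85 (edgeR, adjusted p = 0.403). Without ATC2 it was 3.73, and against Parental_2 in place of Parental_1 it was 7.47.

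COL1A2 lies 6.68 Mb from ABCB1, the drug efflux pump gene, on chromosome 7. ABCB1 had log2 ratios of 7.32, 9.58, 7.12 and 8.06 in ATC1 to ATC4. The 22 other genes with at least 20 counts within 2 Mb of COL1A2 had median log2 ratios of 0.56, 1.33, 0.41 and 2.26, while COL1A2 itself had 3.79, 6.32, 3.75 and 2.67. The neighbours were thus highest in ATC4, where COL1A2 was lowest among the clones. The part of the region in the level of COL1A2 was not tested. For COL1A1 the corresponding medians over 55 neighbours lay between -0.12 and 0.31.

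COL5A1 encodes a chain of type V collagen, which starts the assembly of type I fibrils (chr9:134641774-134844843). It had 9 counts in both Parental_1 and Parental_2 and 248, 321, 46 and 126 in ATC1 to ATC4. Every clone was above the parental libraries, and ATC3 was the lowest clone. This gave a log2 fold change of 4.21 ± 1.27 (edgeR, adjusted p = 0.369; from 0.003 with DESeq2 to 0.571 over all settings). Its partner COL5A2 had 7 counts in Parental_1 and 29, 26, 21 and 10 in the clones, a log2 fold change of 1.48 ± 0.85 (edgeR, adjusted p = 0.506). Per kilobase of exon, COL5A1 stood at 1.09 times COL5A2 in Parental_1 and at 7.26, 10.5, 1.86 and 10.7 times in ATC1 to ATC4.

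COL3A1, the type III chain of skin and vessels, had 3 counts in Parental_1 and 17, 42, 13 and 8 in the clones. The summed clone counts were 6.14 times Parental_1 after scaling, with a 95% interval from the counts of 2.03 to 30.4 that covers counting error only. COL24A1, a fibrillar chain of bone, had no count in Parental_1, 1 in Parental_2 and 4, 35, 9 and 28 in the clones. Taking 3 counts as the most that the 0 of Parental_1 allows, its summed level was at least 5.83-fold higher. Its place among the 2-fold genes in ATC1 rests on 4 counts and on the prior count: against the floor its log2 ratio there was 0.17. COL11A2, a type XI chain of cartilage, differed less, with 48 counts in Parental_1 and 59 to 114 in the clones. The remaining fibrillar members COL2A1, COL5A3 and COL27A1 stayed under 20 counts in every library.

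**Figure D2:**
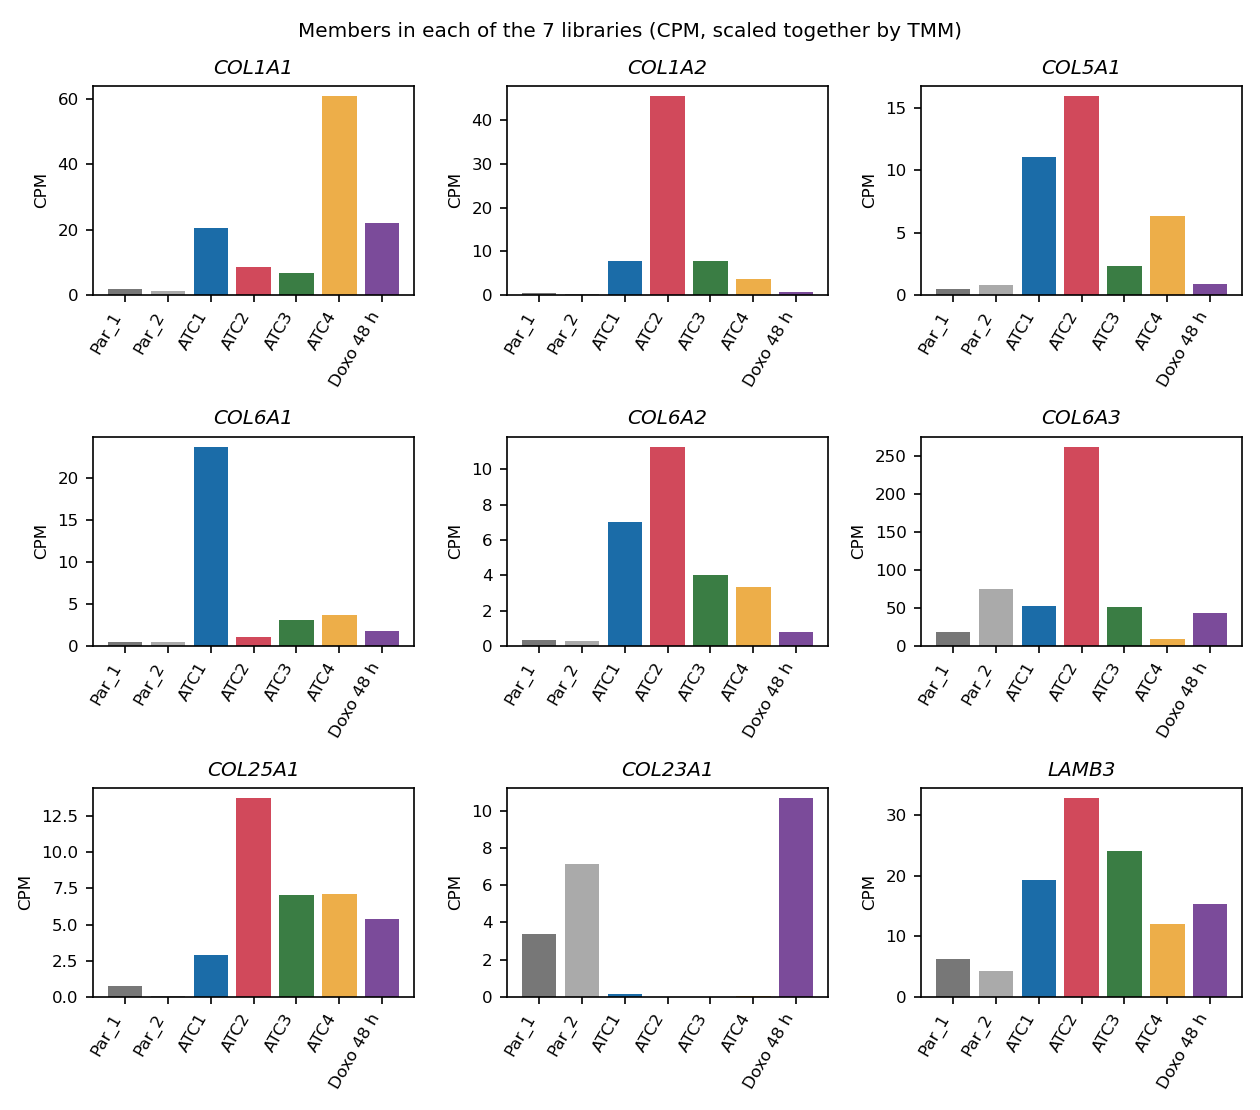
Level in CPM (y axis, linear and starting at 0; all 7 libraries scaled together by TMM) of 9 members in Parental_1, Parental_2, ATC1 to ATC4 and the 48 h doxorubicin library; each bar is 1 library, so there are no error bars. COL1A1 is highest in ATC4, COL1A2 and COL6A3 in ATC2 and COL6A1 in ATC1, while COL23A1 is near 0 in the clones only.

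Type VI collagen forms beaded filaments around cells from the alpha1 and alpha2 chains together with alpha3 or one of its relatives. COL6A2 had the smallest edgeR p among the members that were higher. COL6A1 and COL6A2 lie side by side on chromosome 21 (chr21:45981737-46005050 and chr21:46098097-46132849). COL6A2 had 6 counts in Parental_1, 3 in Parental_2 and 157, 226, 78 and 67 in ATC1 to ATC4. Each clone was more than 8-fold above each parental library, the weakest log2 ratio being 3.01. The log2 fold change was 4.31 ± 1.05 (edgeR, adjusted p = 0.315), DESeq2 gave an adjusted p of 0.001, and with both parental libraries edgeR gave a log2 fold change of 4.44 and an adjusted p of 0.031; the highest adjusted p over all settings was 0.570. COL6A1 had 9 counts in Parental_1 and 528, 20, 59 and 73 in the clones, with ATC1 far above the others and ATC2 just short of 2-fold. Its log2 fold change was 4.02 ± 2.00 (edgeR, adjusted p = 0.460), and 2.40 without ATC1. The 43 to 44 genes within 2 Mb of the pair had median log2 ratios between -0.06 and 0.31 in the clones.

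COL6A3 reached the most counts of type VI in ATC1, ATC2 and ATC3, while COL6A5 had more in Parental_1 and ATC4, and the clones disagreed on COL6A3. It had 336 counts in Parental_1 and 1187, 5270, 1011 and 180 in ATC1 to ATC4, so ATC4 lay below the parental library and the other clones above. Parental_2 had 880 counts, and in CPM it exceeded ATC1, ATC3 and ATC4. The log2 fold change of 2.41 ± 1.65 (edgeR, adjusted p = 0.564) is within the spread of the clones, and it was 1.10 without ATC2 and 0.34 against Parental_2. COL6A5, a relative of the alpha3 chain, had 512 counts in Parental_1 and 1009, 388, 379 and 1374 in the clones, above the parental level in ATC1 and ATC4 only. COL6A6, another such relative, had 4 to 13 counts in the clones and 4 in Parental_1.

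The 250 bases before the RefSeq start of COL6A2 (GRCh38.p14, chr21:46097862-46098111, plus strand) are shown because this gene and COL23A1, whose sequence follows later, were the members called under both DESeq2 and the fit with both parental libraries. Capitals mark matches on either strand to 4 short motifs, which do not overlap one another here: the TATA box searched as TATAAA, the CCAAT box by those letters, the GC box (bound by SP factors) searched as GGGCGG, and the AP-1 site searched as TGANTCA with N for any base.

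COL6A2: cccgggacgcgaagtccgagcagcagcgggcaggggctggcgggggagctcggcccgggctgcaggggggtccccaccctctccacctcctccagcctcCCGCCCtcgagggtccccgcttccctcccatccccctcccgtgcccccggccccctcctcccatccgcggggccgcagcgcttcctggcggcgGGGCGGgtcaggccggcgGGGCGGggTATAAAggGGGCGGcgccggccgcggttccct

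The window of COL6A2 holds 4 GC boxes and 1 TATA box. Of the 34943 RefSeq windows of this length, 42.5% hold a GC box, 10.8% a TATA box, 32.0% a CCAAT box and 6.59% an AP-1 site. RefSeq windows were matched for 39 of the 53 members, and of these 23 held a GC box, 5 a TATA box, 9 a CCAAT box and 1 an AP-1 site. A match is only a run of letters and does not show binding.

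Partner chains did not keep a fixed ratio from clone to clone. Per kilobase of exon, COL1A1 stood at 2.85 times COL1A2 in Parental_1. The same ratio was 2.02, 0.144, 0.679 and 13.1 in ATC1 to ATC4. ATC2 and ATC3 thus had more COL1A2 than COL1A1, the reverse of the other libraries. COL6A3 over COL6A1 was 14.4 in Parental_1 and 0.864, 101, 6.59 and 0.948 in ATC1 to ATC4. Parental_2 also differed from Parental_1 in these ratios, at 11.7 for COL1A1 over COL1A2 and 56.4 for COL6A3 over COL6A1. For COL1A2 and COL6A1 in the parental libraries those values rest on 1 to 9 counts.

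**Figure D3:**
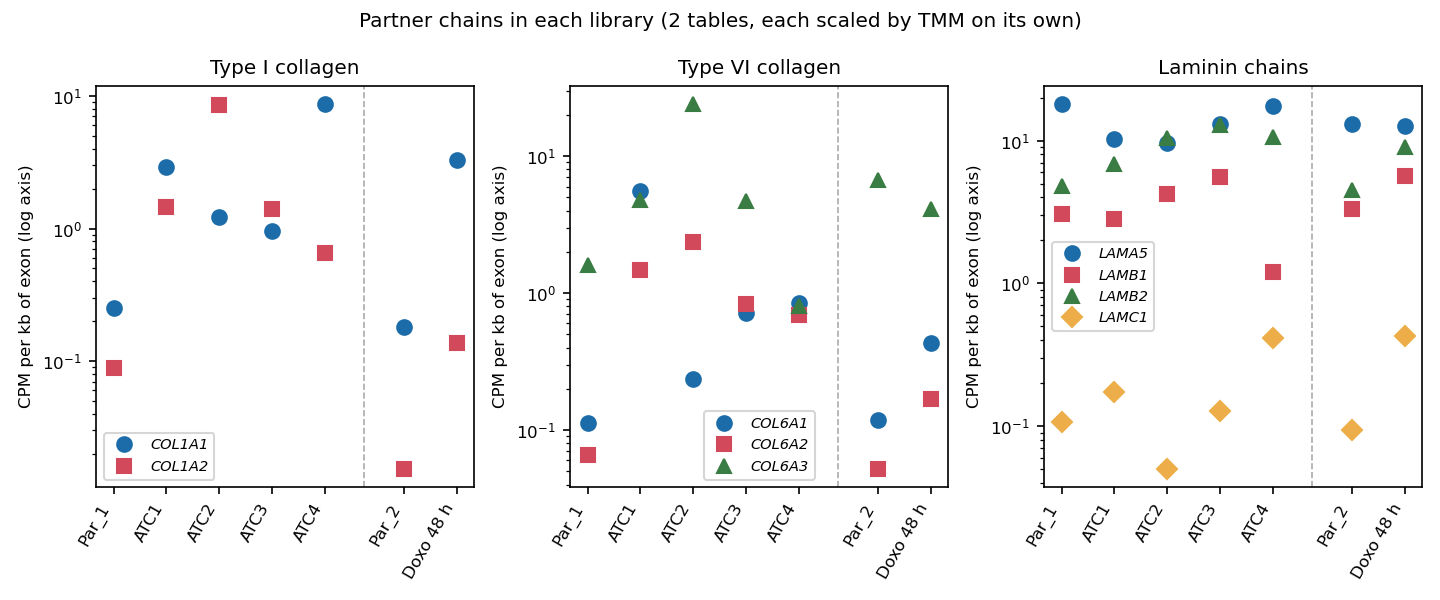
CPM per kilobase of exon (y axis, log scale) of partner chains of type I collagen, type VI collagen and laminin in each library; each symbol is 1 library, and the dashed line separates the table of the clones from the 48 h table, which were scaled separately. The order of COL1A1 and COL1A2 is reversed in ATC2 and ATC3, and LAMC1 lies below LAMA5 and LAMB2 in all 7 libraries.

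Type IV collagen, the basement membrane network, showed no member 2-fold higher or lower in all clones, beside 6.81% and 1.01% of genes. COL4A5, on the X chromosome, was the most abundant per kilobase of exon in every library, with 478 counts in Parental_1, 343, 304, 236 and 648 in the clones and 98 in Parental_2. Only ATC4 exceeded Parental_1, and the parental libraries themselves differed by about 3-fold, the scaled ratio of Parental_2 to Parental_1 being 0.324. The log2 fold change was -0.44 ± 0.55 (edgeR, adjusted p = 0.763) against Parental_1 and 1.18 against Parental_2, so its direction depended on the parental library. COL4A2 had 127 counts in Parental_1 and 195, 171, 321 and 91 in the clones, and COL4A6 had 15 and 44, 17, 19 and 28. Their log2 fold changes were 0.51 ± 0.70 and 0.70 ± 0.74. COL4A1, COL4A3 and COL4A4 stayed under 20 counts everywhere, COL4A1 and COL4A3 with 0 to 2 counts in every parental library and clone.

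The 6 type IV genes lie as 3 pairs that face away from each other, with 126 bases between the RefSeq starts of COL4A1 and COL4A2, 379 between COL4A6 and COL4A5 and 418 between COL4A4 and COL4A3. The shortest span is given because its 2 genes, which share it as their upstream sequence, stood far apart in level (GRCh38.p14, chr13:110307158-110307283, plus strand, with COL4A2 to the right; capitals as above).

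COL4A1 and COL4A2: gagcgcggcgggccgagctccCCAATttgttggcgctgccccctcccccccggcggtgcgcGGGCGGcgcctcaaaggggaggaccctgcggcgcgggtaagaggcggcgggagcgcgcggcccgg

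COL4A2 had 91 to 321 counts in the clones and COL4A1 0 to 2. In Parental_1 the counts were 127 and 0, and in Parental_Doxo 119 and 8. Basement membranes usually hold type IV collagen built from both chains, with more of the COL4A1 chain. The span holds 1 CCAAT box and 1 GC box. COL4A2 overlaps 2 antisense RNA genes by 14 and 81 exon bases in GENCODE 29, and the use of strand in counting is not stated.

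COL7A1, the chain of the anchoring fibrils that tie epithelia to the dermis, was the most even member. It had 48 counts in Parental_1, 20 in Parental_2 and 139, 153, 124 and 120 in ATC1 to ATC4. All clones lay above both parental libraries and close together, at 6.54 ± 0.770 CPM (SD, n = 4), where Parental_1 had 2.54 CPM. Its log2 fold change was 1.36 ± 0.50 (edgeR, adjusted p = 0.403).

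Of the 6 fibril-associated collagens with enough counts, COL9A1 and COL16A1 were 2-fold higher in all clones, beside 6.81% of genes. COL9A1, a type IX chain that coats cartilage fibrils, had 1 count in each parental library and 22, 38, 39 and 7 in the clones. Its summed clone level was 24.4 times Parental_1, with a counting interval of 4.29 to 973. COL16A1 had 1 count in Parental_1 and 15, 21, 7 and 8 in the clones, a ratio of 11.7 (2.01 to 473). For both, the lower limit of the interval lay above 1 and the upper limit is wide because of the single parental count. COL14A1, a fibril-associated chain of tendon and skin, split the clones, with 75 counts in Parental_1 and 684, 106, 17 and 413 in ATC1 to ATC4. It was above Parental_1 by a log2 ratio of 2.92 in ATC1 and below it by one of -2.07 in ATC3.

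COL21A1 was below Parental_1 in every clone, with 246 counts there and 226, 186, 54 and 127 in ATC1 to ATC4, and it passed 2-fold in ATC3 and ATC4 only. Its log2 fold change was -0.87 ± 0.66 (edgeR, adjusted p = 0.599). COL9A2 had 25 counts in Parental_1, 33 in Parental_2 and 36 to 81 in the clones, and COL20A1 had 5 in Parental_1 and 2 to 25. The direction of both depended on a single library: COL9A2 had a log2 fold change of 0.93 against Parental_1 and -0.15 against Parental_2, and COL20A1 had one of 0.86, which was -0.0028 without ATC1. COL9A3 had 9 counts in Parental_1 and 5 to 13 in the clones.

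The multiplexins COL15A1 and COL18A1 are basement membrane collagens whose ends can be cleaved into inhibitors of vessel growth, endostatin being that of COL18A1. COL15A1 had 617 counts in Parental_1, 145 in Parental_2 and 1454, 2065, 719 and 1377 in the clones, all of them above both parental libraries. Its log2 fold change was 1.07 ± 0.54 (edgeR, adjusted p = 0.467). COL18A1 had 1205 counts in Parental_1, 442 in Parental_2 and 3664, 1681, 5217 and 4298 in the clones. The clones averaged 182 ± 77.3 CPM (SD, n = 4) and Parental_1 had 63.8 CPM, for a log2 fold change of 1.51 ± 0.62 (edgeR, adjusted p = 0.416). Per kilobase it was the highest of all 53 members in ATC1 (24.0 CPM per kb), ATC3 (39.0) and ATC4 (31.2), while COL6A3 led in ATC2 (24.0) and LAMA5 in Parental_1 (18.0). COL18A1 shares 1401 exon bases with SLC19A1, the reduced folate carrier, on the opposite strand, and reads of these genes cannot be told apart if strand was not used. SLC19A1 had 2410 counts in Parental_1 and 1421, 411, 1167 and 1811 in the clones, lower in each, where COL18A1 was higher. The part of the shared bases in the counts of either gene was not tested.

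The transmembrane collagens COL23A1 and COL25A1 went opposite ways. COL23A1 (chr5:178237618-178590555) had 63 counts in Parental_1 and 84 in Parental_2 but 4, 0, 0 and 1 in ATC1 to ATC4. All 4 clones were thus at 4 counts or fewer, and the groups did not overlap. The summed clone level was 0.0183 times that of Parental_1 (95% counting interval 0.00574 to 0.0449). The log2 fold change was -5.67 ± 1.08 (edgeR, adjusted p = 0.263), DESeq2 gave an adjusted p of 0.008, and with both parental libraries edgeR gave -6.28 and an adjusted p of 0.021; the highest adjusted p over all settings was 0.414. Its 52 neighbours within 2 Mb had median log2 ratios between -0.24 and -0.07. COL25A1 (chr4:108808725-109302752), a neuronal collagen found in amyloid plaques, had 14 counts in Parental_1, 1 in Parental_2 and 65, 276, 137 and 142 in ATC1 to ATC4. Each clone lay above both parental libraries, ATC1 being the lowest, and the log2 fold change was 3.37 ± 1.01 (edgeR, adjusted p = 0.369; from 0.009 with DESeq2 to 0.570 over all settings). COL13A1 and COL17A1 stayed under 20 counts.

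The sequences before the RefSeq starts of COL23A1 and COL25A1 are set side by side because these genes share a class and differed in direction (GRCh38.p14, minus strand, chr5:178590394-178590643 and chr4:109302659-109302908; capitals as above).

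COL23A1: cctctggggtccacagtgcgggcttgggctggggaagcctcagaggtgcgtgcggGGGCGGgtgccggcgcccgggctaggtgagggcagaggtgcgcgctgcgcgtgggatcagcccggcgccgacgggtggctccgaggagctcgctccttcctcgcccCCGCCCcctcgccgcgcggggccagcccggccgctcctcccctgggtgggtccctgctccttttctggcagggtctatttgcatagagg

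COL25A1: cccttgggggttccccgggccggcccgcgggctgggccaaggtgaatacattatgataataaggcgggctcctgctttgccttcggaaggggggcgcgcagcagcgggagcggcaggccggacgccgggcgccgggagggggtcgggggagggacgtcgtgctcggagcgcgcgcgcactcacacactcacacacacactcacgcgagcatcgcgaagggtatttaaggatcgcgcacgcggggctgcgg

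COL23A1 holds 2 GC boxes, and COL25A1 holds none of the 4 motifs in this window.

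Among the laminins, 0 of 7 genes with enough counts were 2-fold higher in all clones, where 9 of 25 collagens were. The share of all genes was 6.81%, and 0 of 7 is near it. The median log2 ratio of the 7 laminins was 0.65, 1.10, 1.41 and 0.60 in ATC1 to ATC4, and that of the 25 collagens was 1.57, 1.56, 1.32 and 1.20. The difference between the families was not tested. LAMA5, an alpha chain of most adult basement membranes, was the most abundant laminin, with 3971 counts in Parental_1 and 2667, 2227, 3018 and 4129 in the clones. It lay below Parental_1 in all clones after scaling, by -0.04 in ATC4 and -0.91 in ATC2, with a log2 fold change of -0.51 ± 0.38 (edgeR, adjusted p = 0.587). LAMA2, the alpha chain of muscle, had 8 counts in Parental_1 and 56, 61, 60 and 14 in the clones, a log2 fold change of 2.44 ± 1.03 (edgeR, adjusted p = 0.423). LAMA4, the alpha chain of vessel walls, had 8 counts in Parental_1 and 266, 24, 57 and 4 in the clones, so ATC4 was below the parental library and ATC1 far above it.

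Among the beta chains, LAMB3, the beta chain of a skin laminin whose alpha chain is LAMA3, had 117 counts in Parental_1, 51 in Parental_2 and 431, 660, 471 and 240 in ATC1 to ATC4. All clones were above both parental libraries, ATC4 falling just short of 2-fold. The clones averaged 22.1 ± 8.88 CPM (SD, n = 4) and Parental_1 had 6.19 CPM, for a log2 fold change of 1.83 ± 0.63 (edgeR, adjusted p = 0.392). LAMA3 was near absent in the clones, with 0 to 3 counts. LAMB2 had 526 counts in Parental_1, 308 in Parental_2 and 883, 1190, 1452 and 1239 in the clones, and its log2 fold change was 1.08 ± 0.40 (edgeR, adjusted p = 0.404). LAMB1 had 380 counts in Parental_1 and 416, 561, 723 and 161 in the clones, and no single direction: its log2 fold change of 0.19 ± 0.73 turned to -0.14 without ATC3 and to -0.03 with limma-voom. It shares 70 exon bases with DLD on the opposite strand. LAMC1, the gamma chain of most laminins, had 16 counts in Parental_1 and 31, 8, 20 and 67 in the clones. Per kilobase, LAMA5 stood at 42.0 to 190 times LAMC1 in the clones and 169 times in Parental_1. LAMC3 had 8 counts in Parental_1 and 4 to 12 in the clones, and LAMB4 had 1 and 0 to 8.

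After 48 h of doxorubicin, 20 of the 32 members that reached 20 counts in the higher library were at least 2-fold above Parental_2, beside 15.7% of the 13865 genes of that depth. No member was 2-fold lower, beside 9.51% of genes. There was 1 library on each side, so no test was possible, and the intervals given here cover counting error only. The 20 members included 9 of 11 laminins and 11 of 21 collagens. Many of the 20 reached 20 counts in Parental_Doxo only. Among them were COL1A1 with 15 counts in Parental_2, COL25A1 with 1 and LAMA1 with 0. The genes behind the share of 15.7% were admitted by the same rule. Weak expression was common: 17 members had 20 to 99 counts in the higher library and 14 of these were 2-fold higher, beside 37.2% of genes in that range. In the clones the same range held 11 members, of which 3 were 2-fold higher, beside 12.9% of genes. The median log2 ratio of the 32 members at 48 h was 1.65, and that of all genes was 0.01. With the 3 laminins that had no count in Parental_2 set at their lower bounds, the median stayed at 1.65.

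COL1A1 was among the higher members in both comparisons. It had 15 counts in Parental_2 and 340 in Parental_Doxo, a scaled ratio of 18.4 (95% interval 11.0 to 33.2). COL1A2 had 1 and 11 counts, a ratio of 8.92 with an interval of 1.30 to 384, and against Parental_1 the ratio was 1.48. Type I collagen in the treated library was therefore nearly all COL1A1, at 24.0 times COL1A2 per kilobase. COL5A1, with 9 and 13 counts, had a ratio of 1.17 (0.463 to 3.10), and COL5A2, with 6 and 30, one of 4.05 (1.66 to 11.9). COL3A1 had 1 and 8 counts and COL24A1 1 and 13.

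All 3 type IV members with enough counts were 2-fold higher at 48 h, beside 15.7% of genes. COL4A6 had 4 and 51 counts, a ratio of 10.3 (3.80 to 39.4), COL4A2 had 42 and 119, a ratio of 2.30 (1.60 to 3.35), and COL4A5 had 98 and 245, a ratio of 2.03 (1.60 to 2.59). Against Parental_1 COL4A5 had a ratio of 0.622, below 1, and COL4A2 one of 1.14. COL4A3 had 16 counts in Parental_Doxo and COL4A1 had 8, against 0 in Parental_2 for both.

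In type VI collagen the chains differed at 48 h. COL6A6 had 3 and 40 counts, a ratio of 10.8 (3.44 to 54.6), and COL6A1 had 6 and 27, a ratio of 3.65 (1.47 to 10.8). COL6A2 had 3 and 12. COL6A3 was lower, with 880 and 668 counts and a ratio of 0.615 (0.556 to 0.681), but Parental_2 held more COL6A3 than Parental_1, and against Parental_1 the ratio was 2.41. COL6A5 had 315 and 604 counts, a ratio of 1.55 (1.35 to 1.79).

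Outside these families, COL7A1 had 20 and 116 counts, a ratio of 4.70 (2.91 to 7.98). COL25A1 had 1 and 83, a ratio of 67.3 (11.7 to 2689), and COL9A1 had 1 and 53, a ratio of 43.0 (7.39 to 1729). Both rest on a single count in Parental_2, and against Parental_1, with 14 counts, COL25A1 was 7.20 times higher. COL28A1, a collagen of peripheral nerve, had 2 and 21 counts, a ratio of 8.51 (2.08 to 74.9). COL23A1, near absent from the clones, was present in the treated library at 164 counts against 84, a ratio of 1.58 (1.21 to 2.08). COL9A2, COL9A3, COL11A2, COL15A1 and COL18A1 had ratios of 1.32 to 1.82, but against Parental_1 COL11A2, COL15A1 and COL18A1 had ratios of 0.911, 0.464 and 0.741. Against Parental_1 COL9A2, COL9A3 and COL23A1 had ratios of 3.55, 3.37 and 3.16, above 2-fold. COL14A1 had 99 and 109 counts, a ratio of 0.893 (1.76 against Parental_1), and COL21A1 had 164 and 113, a ratio of 0.559 (0.436 to 0.714), the lowest of the 32.

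All 5 laminin alpha chains had enough counts at 48 h, and 4 were 2-fold higher, beside 15.7% of genes. Among genes with 20 to 99 counts in the higher library, the range of these 4, the share was 37.2%. LAMA1, the alpha chain of the embryo, had 0 and 25 counts, LAMA3 0 and 21 and the gamma chain LAMC3 0 and 30, which makes them at least 6.76-fold, 5.67-fold and 8.11-fold higher with a floor of 3 counts in Parental_2. Against Parental_1, which had 8 counts of LAMC3, the LAMC3 ratio was 4.55. In the clones these 3 chains had at most 5, 3 and 12 counts. LAMA2 had 2 and 25 counts, a ratio of 10.1 (2.53 to 88.3), and LAMA4 had 6 and 29, a ratio of 3.92 (1.60 to 11.5). LAMA5 did not share in this, with 1828 and 2178 counts and a ratio of 0.966 (0.907 to 1.03), or 1.06 when scaled by library totals. LAMB3 had 51 and 235 counts, a ratio of 3.74 (2.75 to 5.16), LAMB4 1 and 24, a ratio of 19.5 (3.17 to 800.1), and LAMC1 9 and 50, a ratio of 4.50 (2.19 to 10.4). LAMB2 had 308 and 763 counts and lay at the 2-fold limit, with a ratio of 2.01 (1.76 to 2.30), and LAMB1 had 264 and 548, a ratio of 1.68 (1.45 to 1.96).

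**Figure D4:**
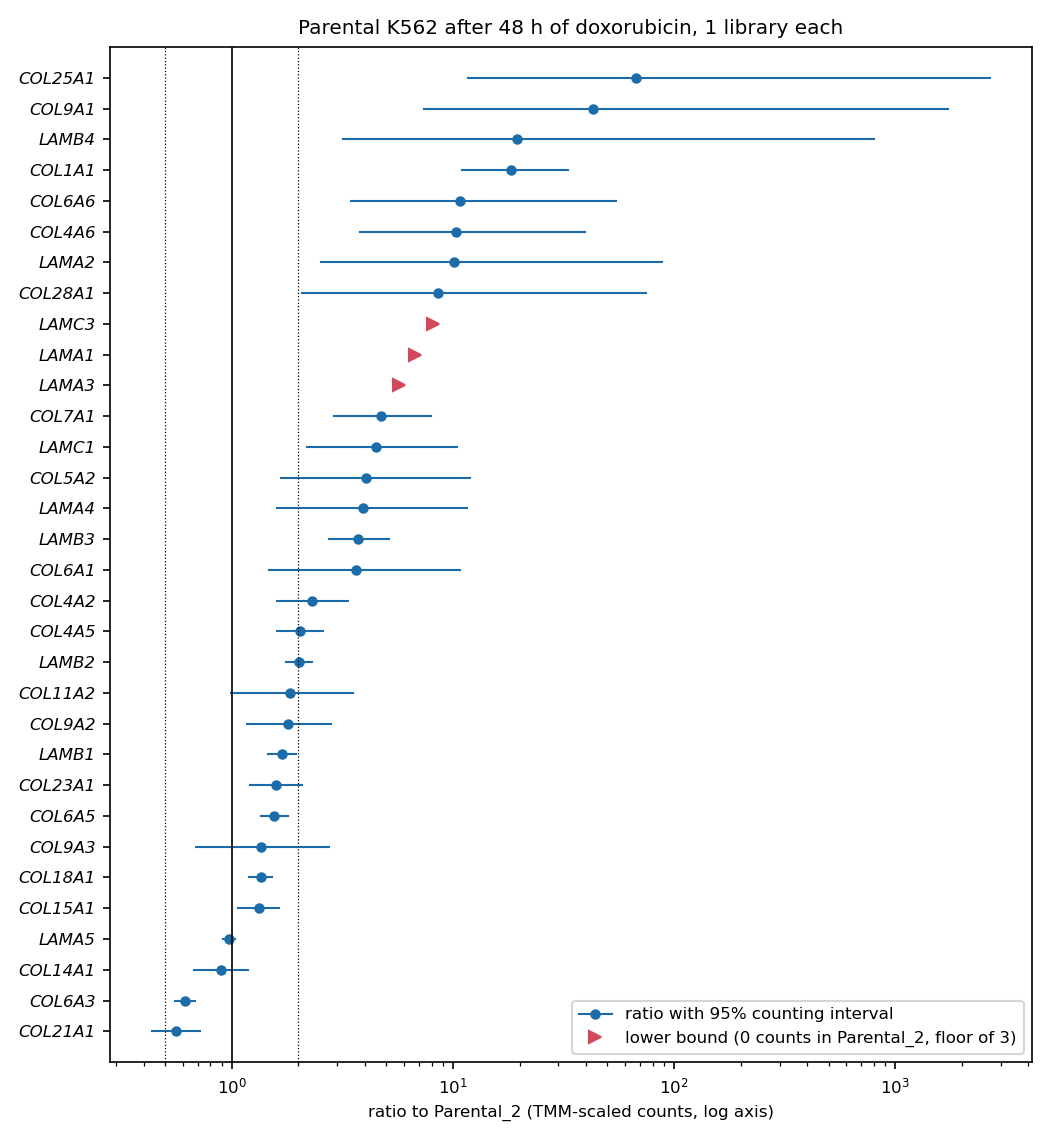
Ratio of TMM-scaled counts after 48 h of doxorubicin to Parental_2 (x axis, log scale) for the 32 members that reached 20 counts in the higher library; points are ratios with their 95% counting interval, triangles are lower bounds for members with no count in Parental_2, and dotted lines mark 2-fold. The ratios run from 0.559 for COL21A1 to 67.3 for COL25A1, and 20 members lie at or right of the right dotted line.

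The collagens that never reached 20 counts were COL2A1, COL4A1, COL4A3, COL4A4, COL5A3, COL8A1, COL8A2, COL10A1, COL12A1, COL13A1, COL17A1, COL19A1 and COL27A1. Their highest counts ranged from 3 for COL13A1 to 17 for COL2A1, the latter in ATC4. All 3 short chain collagens (COL8A1, COL8A2 and COL10A1) were among them. COL17A1 and COL4A3 had 15 and 16 counts after 48 h against 0 in Parental_2.

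The parental libraries were a limit for several members. Of 17 members with at least 20 counts in either, COL6A3, COL9A2, COL14A1 and COL23A1 were at least 2-fold higher in Parental_2 (5.98% of genes) and COL4A5 and COL15A1 at least 2-fold lower (6.03% of genes). Both are labelled as libraries of 1 sample, and what separates them is not stated in the labels.

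Genes that make, bind or degrade collagen and laminin were read from 4 further lists. In the fit against Parental_1, no gene of these lists passed edgeR's test. With both parental libraries in the edgeR fit, PLOD2, ITGA7 and TIMP4 were called higher (adjusted p = 0.014, 0.015 and 0.012), beside 1.48% of genes. FN1 was called lower in that fit (edgeR, adjusted p = 0.012), beside 0.579% of genes. DESeq2 called 1 enzyme (PLOD2), 4 receptors (ITGA3, ITGA6, ITGA7 and MRC2) and 2 genes of the degradation list (CTSK and TIMP4) higher, and of the matrix partners 1 higher (FBN2) and 1 lower (FN1), beside 2.85% of genes higher and 0.604% lower, while limma-voom called 0 in each list. Of 23 tested enzymes of collagen folding, processing and cross-linking, 1 was higher at an unadjusted edgeR p under 0.05 (7.5% of all genes) and 0 lower (4.28%), which is near the share of all genes. The higher gene was PLOD2, the lysyl hydroxylase of collagen telopeptides, with 74 counts in Parental_1 and 588, 752, 571 and 435 in ATC1 to ATC4 and a log2 fold change of 2.87 ± 0.48 (edgeR, adjusted p = 0.215; from 4.00e-07 with DESeq2 to 0.414 over all settings). At 48 h PLOD2 had 40 and 35 counts, a ratio of 0.709 (0.437 to 1.15). The cross-linking enzyme LOXL3 had 20 counts in Parental_1 and 39, 94, 65 and 73 in the clones, and the enzymes with the smallest p among the lower ones, MIA3 (a collagen export factor) and PLOD1, had log2 fold changes of -0.49 ± 0.28 and -0.62 ± 0.38. Most of the enzymes were well expressed before any drug: the list summed to 2125 CPM in Parental_1 and 2088 to 2641 CPM in the clones. At 48 h 4 of 21 were 2-fold higher and 2 lower, near the shares of all genes (15.7% and 9.51%).

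Of 14 tested collagen and laminin receptors, 5 were higher (7.5% of all genes) and 0 lower (4.28%) at an unadjusted edgeR p under 0.05, and 5 of 14 were 2-fold higher in all clones (6.81% of genes). Among them ITGA2, ITGA3 and ITGA6 had 4, 1 and 2 counts in Parental_1 and were admitted through the clones alone. The genes behind these shares were admitted by the same rules. ITGA7, the alpha subunit of a laminin-binding integrin, had 44 counts in Parental_1 and 367, 262, 366 and 401 in the clones, with a log2 fold change of 2.87 ± 0.49 (edgeR, adjusted p = 0.220; from 4.68e-07 with DESeq2 to 0.414 over all settings). MRC2, the endocytic collagen receptor, had 511 counts in Parental_1 and 1218, 2324, 1753 and 1632 in the clones. The dystroglycan gene DAG1 and the collagen-activated kinase gene DDR1 differed little, with log2 fold changes of -0.07 ± 0.28 and -0.11 ± 0.33. At 48 h 4 of 10 receptors were 2-fold higher (15.7% of genes), among them ITGA7 with 19 and 140 counts, and 1 was lower (9.51%).

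Among 12 tested matrix partners, 2 were higher (7.5% of all genes) and 1 lower (4.28%) at an unadjusted edgeR p under 0.05. The 2 higher genes, FBN2 and NID1, had 0 counts in Parental_1 and passed the filter on low counts through the clones alone. FN1, which encodes fibronectin, was the lower one, with 1200 counts in Parental_1, 1385 in Parental_2 and 95, 54, 39 and 127 in ATC1 to ATC4, a log2 fold change of -4.06 ± 0.53 (edgeR, adjusted p = 0.199; from 1.91e-07 with DESeq2 to 0.414 over all settings). The clones lay far below both parental libraries, and at 48 h FN1 had 2622 counts, a ratio of 1.53. SPARC, a collagen-binding matrix protein gene, had 1242 counts in Parental_1 and 123, 882, 96 and 189 in the clones. FBN2, a fibrillin gene, had 0 counts in Parental_1, 3 in Parental_2 and 60, 107, 72 and 35 in the clones, at least 21.0-fold higher by the floor of 3 counts. NID1, which encodes the nidogen that links laminin to type IV collagen, had 0 counts in both parental libraries, 5, 14, 3 and 19 in the clones and 27 after 48 h. At 48 h 4 of 9 matrix partners with enough counts were 2-fold higher (15.7% of genes) and 0 lower (9.51%).

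Of 10 tested collagenases, gelatinases and their inhibitors, 5 were higher (7.5% of all genes) and 0 lower (4.28%) at an unadjusted edgeR p under 0.05. Among them TIMP4, MMP1 and MMP2 had 3, 3 and 0 counts in Parental_1 and passed the filter on low counts through the clones alone. TIMP4, a metalloproteinase inhibitor gene, had 3 counts in Parental_1, 1 in Parental_2 and 314, 136, 357 and 418 in the clones, and 5 after 48 h. The summed clone counts were 94.0 times Parental_1 (95% counting interval 32.1 to 456). MMP2, a gelatinase gene, had 0 counts in Parental_1 and 9, 9, 9 and 5 in the clones. At 48 h 2 of 5 genes of this list with enough counts were 2-fold higher (15.7% of genes) and 0 lower (9.51%).

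Marker genes of the cell types that usually make these proteins were measured as well. The fibroblast list summed to 2.65 CPM in Parental_1, 16.7 to 65.3 CPM in the clones, 1.51 CPM in Parental_2 and 26.7 CPM after 48 h, but 3 of its 9 genes in the table of the clones are COL1A1, COL1A2 and COL3A1. Of the others, LUM, FAP and PDGFRA were at 0 in Parental_1 and at 0 to 6 counts in the clones, and THY1 had 1 count in Parental_1 and 1 to 4 in the clones. PDGFRB had 1 count in Parental_1, 0 in Parental_2, 6 to 15 in the clones and 17 after 48 h, with a log2 fold change in the clones of 2.88 ± 1.28. DCN had 3 counts in Parental_1, 1 in Parental_2, 5 to 28 in the clones and 3 after 48 h, with a log2 fold change of 2.61 ± 1.21. Both were thus above the parental libraries in all clones, as COL1A1 and COL1A2 were. The endothelial list summed to 2.59 CPM in Parental_1, 17.1, 69.6, 38.5 and 4.31 CPM in ATC1 to ATC4, 3.26 CPM in Parental_2 and 9.16 CPM after 48 h. That sum was highest in ATC2, the clone with the most COL1A2 and COL6A3, and lowest in ATC4, the clone with the most COL1A1. In ATC1 to ATC3 it came mainly from ESAM (25 counts in Parental_1 and 304, 1052, 406 and 33 in the clones) and VWF (1 and 26, 251, 313 and 1). In the clones CDH5 had 1 to 5 counts, KDR 2 to 7 and TEK 4 to 47. CLDN5 had 22 counts in Parental_1 and 34, 27, 11 and 45 in the clones, more than ESAM in ATC4. At 48 h CLDN5 had 4 and 70 counts, a ratio of 14.2. The epithelial list summed to 588 CPM in Parental_1, 426 to 750 CPM in the clones, 425 CPM in Parental_2 and 846 CPM after 48 h, and in the clones 1 of its 5 tested genes, CLDN4, was higher at an unadjusted edgeR p under 0.05 (7.5% of all genes). At 48 h, when 9 of 11 laminins were 2-fold higher, 3 of 5 epithelial genes with enough counts were so too (15.7% of genes): CDH1 had 1 and 128 counts, KRT19 1184 and 5134, a ratio of 3.52, and KRT8 1989 and 5151, a ratio of 2.10. The others with enough counts were lower: KRT18 had a ratio of 0.903 (0.838 to 0.972) and EPCAM one of 0.783 (0.695 to 0.883). CLDN4 had 1 and 15 counts. The lymphoid and monocytic list summed to 180 CPM in Parental_1, 224 to 503 CPM in the clones, 529 CPM in Parental_2 and 220 CPM after 48 h. At an unadjusted edgeR p under 0.05, 2 of 5 tested fibroblast genes (COL1A1 and COL1A2), 0 of 4 endothelial, 2 of 6 lymphoid and monocytic and 0 of 11 K562 genes were higher in the clones, beside 7.5% of all genes. The part of the fibroblast, endothelial, epithelial, lymphoid and monocytic markers in the levels of the collagen and laminin genes was not tested.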

How the data were processed

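RNA was extracted with TRIzol and made into TruSeq stranded mRNA libraries, per the labels' protocols. The deposited tables hold whole read counts per gene, raised by 1 by the authors, with a missing value where neither library of a pair had a count. These were turned back to counts by taking off the 1, and missing values became 0. The authors' log2 columns equal the log2 ratio of a pair minus the log2 ratio of its column sums (checked on every row) and were not used. The submitters' processing notes name GRCh38 as genome build. For the aligner, the counter and its use of strand, nothing is given in the sources used here. Positions and exon lengths came from GENCODE 29 by Ensembl ID, which matched all 53 members, and upstream sequences from RefSeq (GRCh38.p14); where several starts are listed, the first was used.

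ATC1 to ATC4 were set against Parental_1 in edgeR 4.0.16 (R 4.3.3; TMM, filterByExpr, quasi-likelihood test, Benjamini-Hochberg adjustment at 0.05 over 18300 genes, 3 residual degrees of freedom). The SE after ± on a log2 fold change was worked back from the F statistic. Every edgeR p is from this fit unless another is named. The 48 h ratio is of TMM-scaled counts, with a 95% exact binomial interval, or a floor of 3 counts in a library at 0. Reads carry no molecular identifiers, so intervals and floors cover counting error only. The code was tested on simulated data. DESeq2 1.42.0, limma-voom (limma 3.58.1), other scalings, count minimums and prior counts, each clone left out and the other parental library were alternatives. All members with at least 20 counts in any library are described by class, and of each of the 4 lists of matrix-related genes up to 2 genes with the smallest p in each direction are named. The named genes of the marker lists, CTSK, ITGA2, ITGA3, ITGA6, MMP1 and SLC19A1 were chosen after their values were seen. Members and lists were chosen with earlier results of these data known. The dose is in ng/ml as in the sample protocols, although the series text once has ng/ul. Tests are two-sided. The values of 1 laminin gene are not reported here.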

Additional observations from a re-analysis of the deposited data

Results flagged for a closer look

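For 39 members the level of each clone was set against the other 3, and for 3 members one clone stood apart, its gap to the nearest clone, as a share of the whole range, exceeding Dixon's 95% critical value for 4 samples. Chance alone flags about 1 in 20 such groups. COL1A2 stood apart in ATC2 at 45.87 CPM, with a gap of 0.899 of the range. COL6A1 stood apart in ATC1 at 23.63 CPM, with a gap of 0.884. COL4A5 stood apart in ATC4 at 32.11 CPM, with a gap of 0.835. Each of the 3 was highest in a different clone.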

How the results depend on the processing

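No member was called by edgeR with any scaling, filter or left-out clone, nor by limma-voom. DESeq2 called 4 members higher and 1 lower, and edgeR with both parental libraries called 1 higher and 1 lower; the cause was not tested. The count of members 2-fold higher in all clones, 9, ranged from 9 to 15 when 1 clone was left out, the 15 arising without ATC4, where fewer clones have to pass (9.6% of genes), and was 15 against Parental_2 in place of Parental_1 (8.26%). Of 32 members it was 12 with library totals (8.05%) and 11 and 7 with prior counts of 0.5 and 5 (7.91% and 5.16%). It was 10 of 53 with at least 1 count (4.31%) and 6 of 25 with at least 50 (5.81%). The single member 2-fold lower was found at every setting. At 48 h, 32 of 45 members were 2-fold higher with a minimum of 10 counts and 10 of 20 with a minimum of 50, where more and fewer members enter. Against Parental_1 1 member was 2-fold lower (COL15A1, ratio 0.464). The shares of all genes at these 48 h settings were not computed, so these counts cannot be set against them. Results that reversed were COL20A1 (log2 fold change -0.0028 to 1.186 with 1 clone left out, below 0 without ATC1), COL4A5 with both parental libraries (0.16), with Parental_2 (1.18) and at 48 h against Parental_1 (ratio 0.622), COL9A2 with Parental_2 (-0.15), and LAMB1 with limma-voom (-0.0255) and with 1 clone left out (-0.1385 to 0.4567, below 0 without ATC3). For the clones this list covers only members with at least 20 counts in the table of the clones. Weaker members changed direction too with Parental_2 in place of Parental_1, among them COL9A3 (0.09 to -1.31), COL2A1 (-0.03 to 5.33) and LAMC3 (-0.04 to 5.98). At 48 h the list covers only members at least 2-fold higher or lower than Parental_2. Smaller 48 h ratios also crossed 1 against Parental_1. They were COL6A3 (0.615 to 2.41), COL14A1 (0.893 to 1.76), COL11A2 (1.82 to 0.911), COL15A1 (1.32 to 0.464) and COL18A1 (1.35 to 0.741). LAMA5 crossed it with library totals. The causes were not tested. Scaling by library totals put the median log2 fold change of all tested genes at 0.29 in place of 0.11. No paired analysis was possible because only the clones carry replicate numbers and the parental sample is single. Depth limits the members with 1 to 9 parental counts, whose intervals span several-fold.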
